A study of Gallus gallus with 10 samples.

Results

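Of 24881 chicken genes in the count table, 427 (1.72%) were higher in the induced optic tectum (iTeO) than in both natural tissues, the optic tectum (TeO) and the cerebral cortex (NCC), while TeO and NCC were near each other. The members were chosen by their measured values in the 10 libraries. A member had a mean of at least 2 CPM (counts per 1000000 chicken counts of the library) in iTeO and more than 2 times the mean of TeO and of NCC. Its ratio of TeO to NCC, with 0.1 CPM added to both means, was between 0.5 and 2, and its lowest iTeO library was above its highest TeO or NCC library. The members were 3.44% of the 12418 chicken genes with a mean of at least 2 CPM in iTeO. Differences between iTeO and the natural tissues, and between TeO and NCC, are therefore given for these genes as a description. Calls and p-values printed for them serve as no test.

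The optic tectum is the layered roof of the avian midbrain, which receives and processes input from the retina. In the embryo, the isthmic organizer at the border of midbrain and hindbrain secretes signals that pattern the tectum, and the forebrain gives rise to the diencephalon and the cerebrum. Tectal layers form as newborn neurons leave the ventricular zone and migrate along radial glia.

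The iTeO tissue was ectopic tectum of chicken embryos in which part of the anterior diencephalon had been replaced, at stage HH11, by human neuroepithelial cells (NECs) derived from pluripotent stem cells in the 3-day protocol. There were 2 iTeO (ES) libraries, from NECs of a human embryonic stem cell line, and 2 iTeO (iPS) libraries, from NECs of an induced pluripotent stem cell line, so each kind of iTeO stood for 1 human line. TeO and NCC gave 3 libraries each, and the genotype of all samples was labelled WT. The labels give neither the age of the tissue nor whether a library held 1 embryo or several, so p-values measure only the spread between these libraries, which may be technical. The study proposes that iTeO was at an earlier developmental stage than TeO. Its methods give a default day of sacrifice for grafted embryos, but name no age for the iTeO libraries in particular and none for TeO and NCC. A difference of stage therefore cannot be told apart from one of tissue. Diencephalon without a graft was not among the tissues, and the study's text does not say whether the TeO and NCC embryos carried grafts. The files list genes by Ensembl identifier and do not pair the identifiers with names, and 0 of them matched the gene table at hand. Marker genes of tectum or of any cell type, pathways and sequences are for this reason not given, and the label of iTeO as tectum was not checked here.

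Chicken counts numbered 7809002 to 10527402 per library in iTeO, 10893074 to 11591361 in TeO and 11081611 to 11615474 in NCC. A count of 3 corresponded to between 0.258 and 0.384 CPM. A single chicken gene that is not a member took 13.3% to 15.2% of the chicken counts in iTeO, 19.8% to 22.0% in TeO and 18.5% to 20.2% in NCC. Counts on human genes made up 0.371% and 0.299% of all counts in the first replicates of iTeO (ES) and iTeO (iPS), 0.129% and 0.124% in their second replicates and 0.123% to 0.137% in TeO and NCC. A set of 21 chicken genes, none of them a member, was chosen after the data were seen. Each had at most 3 counts in a TeO library and over 5 CPM in another, so a split within TeO was built in. The set was on in iTeO (ES), in the second and the third replicate of TeO and in the third of NCC, with a summed level of 396 to 484 CPM. The same set was off in iTeO (iPS), in the first replicate of TeO and in the other two of NCC, with 0.354 to 3.19 CPM.

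Together the members took a larger share of the chicken counts in every iTeO library than in any library of a natural tissue, as the rule requires. Their summed share was 2.38% and 2.63% in iTeO (ES), 2.38% and 2.53% in iTeO (iPS), 0.853%, 0.929% and 0.997% in TeO, and 0.815%, 0.912% and 0.882% in NCC. The iTeO libraries averaged 2.48% ± 0.125 (SD, n = 4), the TeO libraries 0.927% ± 0.0721 and the NCC libraries 0.870% ± 0.0494 (SD, n = 3 each). The 95% Wilson interval of each share was at most 0.0107 percentage points to either side, which reflects counting error alone, as PCR duplicates of a molecule were counted like separate molecules. Without the member with the most counts, the mean share was 2.09% in iTeO, 0.785% in TeO and 0.739% in NCC. In these bulk tissues, more cells that express a member and more RNA of it per cell cannot be told apart.

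**Figure D1:**
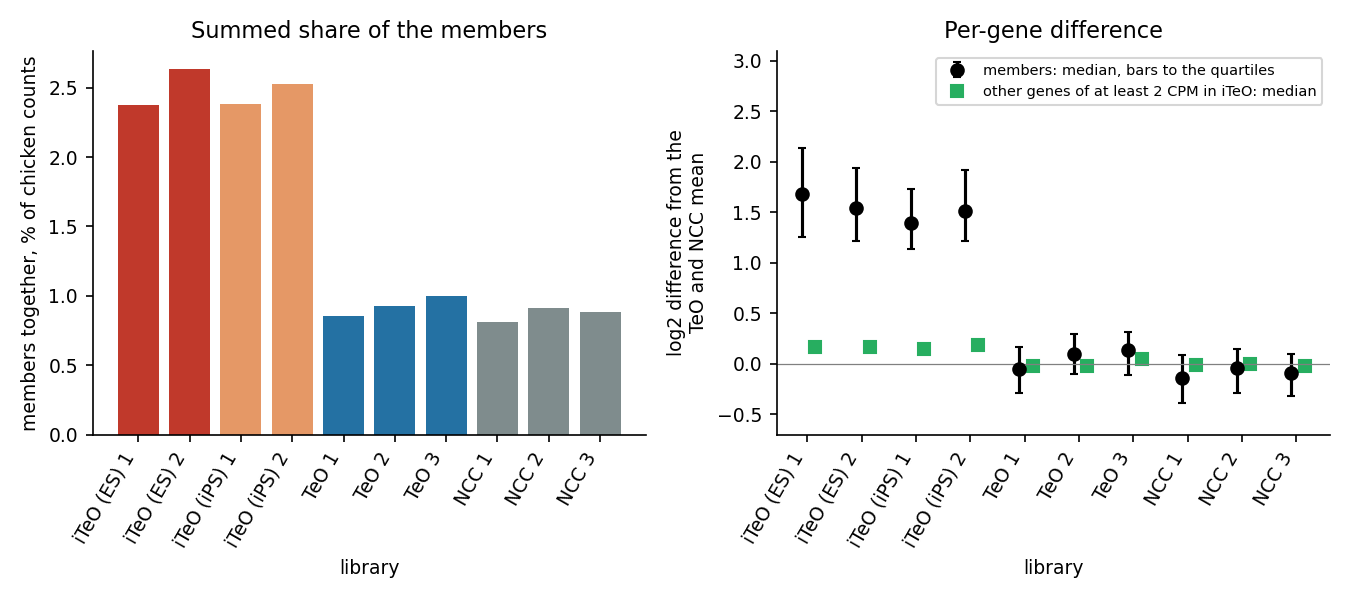
Left, the summed CPM of the 427 members as a percent of chicken counts (bars, 1 per library). Right, the log2 difference of CPM + 0.1 from the mean of the 6 TeO and NCC libraries, as the median over members (circles, bars to the quartiles) and over the other genes of at least 2 CPM in iTeO (squares). The iTeO bars lie between 2.38% and 2.63% and the TeO and NCC bars between 0.815% and 0.997%.

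Gene by gene, the median difference of the members from the mean of TeO and NCC was 1.68 and 1.54 on the scale of log2(CPM + 0.1) in iTeO (ES) replicates 1 and 2, and 1.40 and 1.52 in iTeO (iPS) replicates 1 and 2. The other genes of at least 2 CPM in iTeO also lay above this mean in the iTeO libraries, by a median of 0.15 to 0.19. The share of the most counted gene was smaller there, as given above, and its part in this shift was not tested. The number of members depends on this shift. Scaling by trimmed mean of M values (TMM), which sets the typical gene equal between libraries, left 287 genes under the same rule, 286 of them among the 427. Turning the rule round gave 41 genes that were lower in iTeO alone, and 93 with TMM scaling. Higher and lower genes thus numbered 427 and 41 by CPM and 287 and 93 by TMM, and by the size factors of DESeq2 293 and 91.

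**Figure D2:**
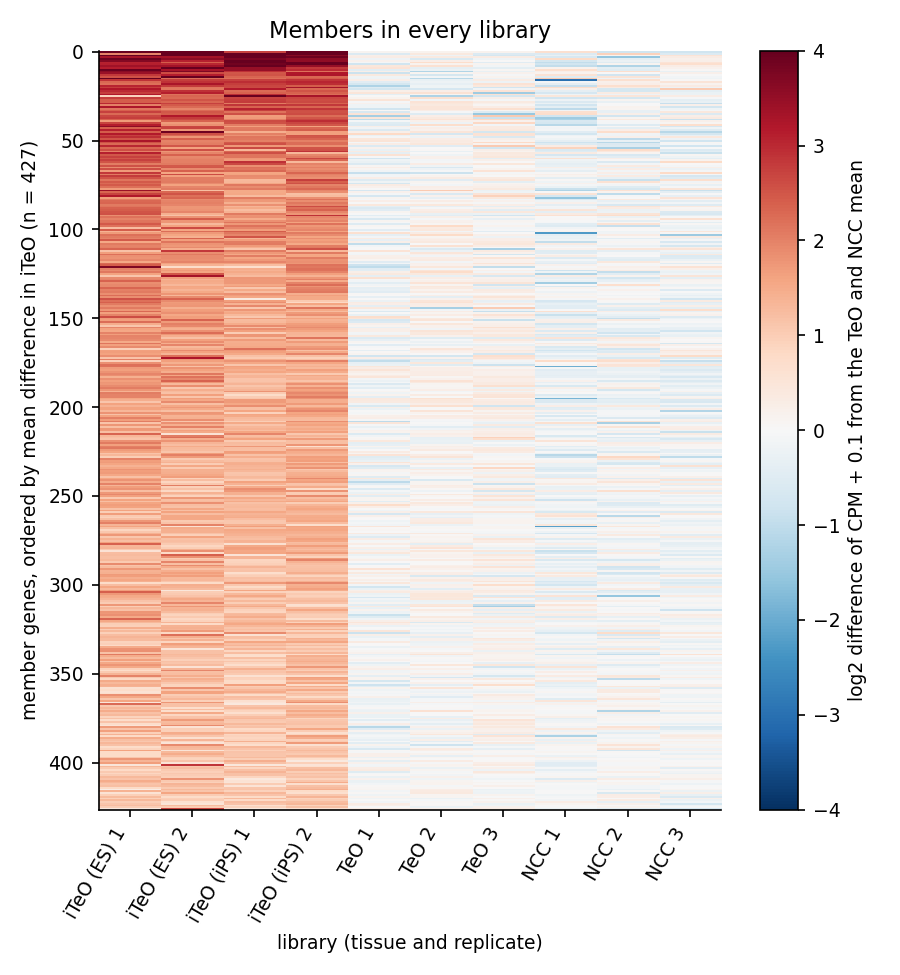
Each row is 1 of the 427 members and each column 1 library. Colour gives the log2 difference of CPM + 0.1 from the gene's mean over TeO and NCC, with the scale ending at 4 in either direction. The 4 iTeO columns are red from top to bottom, as the rule requires, with more depth of colour in iTeO (ES) replicate 1 than in iTeO (iPS) replicate 1 (median differences 1.68 and 1.40).

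Levels of the members were mostly low. Their mean in iTeO had a median of 10.2 CPM and ran between 2.02 and 3931 CPM, with 114 members from 2 to under 5 CPM, 99 from 5 to under 10, 145 from 10 to under 50, 30 from 50 to under 100 and 39 at 100 CPM or more. Most members lay near the 2-fold threshold. The ratio of the iTeO mean to the higher of the TeO and NCC means was under 3 in 279 members, 3 to under 5 in 103, 5 to under 10 in 32 and 10 or more in 13, with a median of 2.60. The lowest iTeO library was at least 1.5 times the highest TeO or NCC library in 300 members, at least 2 times in 134, at least 3 times in 36 and at least 5 times in 10. It was less than 1.1 times as high in 18. Over all genes of at least 2 CPM in iTeO, 25.4% had 4 iTeO libraries above all 6 TeO and NCC libraries, and 12.8% after TMM scaling.

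ENSGALG00000030329 and ENSGALG00000013575 had the widest gap between the lowest iTeO and the highest natural library, with or without 0.1 CPM added to both. ENSGALG00000030329 had levels of 12.0 and 13.6 CPM in the iTeO (ES) libraries and 12.8 and 9.32 CPM in iTeO (iPS), against 0.776, 0.551 and 0.356 CPM in TeO and 0.517, 0.708 and 0.993 CPM in NCC. Its 4 iTeO libraries were close together, the lowest being 9.39 times the highest natural library, and it averaged 11.9 ± 1.86 CPM over iTeO (SD, n = 4), 0.561 ± 0.210 CPM over TeO and 0.739 ± 0.240 CPM over NCC (SD, n = 3 each). ENSGALG00000013575 had levels of 2.85 and 2.86 CPM in the iTeO (ES) libraries and 6.40 and 4.37 CPM in iTeO (iPS), against 0.259, 0.275 and 0.267 CPM in TeO and 0.0861, 0 and 0.271 CPM in NCC. The natural values rest on 0 to 3 counts per library, against 28 to 50 counts in iTeO.

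ENSGALG00000040493 and ENSGALG00000023622 were chosen after their values were seen, as the members with the highest level and with the largest ratio to the higher natural mean. ENSGALG00000040493 had levels of 3056 and 4377 CPM in the iTeO (ES) libraries and 4024 and 4266 CPM in iTeO (iPS), against 1391, 1381 and 1468 CPM in TeO and 1351, 1329 and 1233 CPM in NCC. It was thus abundant in all tissues and 2.78 times as high in iTeO as in TeO and 3.01 times as high as in NCC by the means. ENSGALG00000023622 had levels of 17.7 and 3.99 CPM in the iTeO (ES) libraries and 1.02 and 4.72 CPM in iTeO (iPS), against at most 0.0918 CPM in a TeO library and 0.172 CPM in an NCC library. Its iTeO libraries spanned 17.2-fold, the widest range of any member. The ratio of its means was 76.9 for iTeO over TeO and 119 for iTeO over NCC. Pooling the libraries of a tissue, it had 273 counts in iTeO against 3 in TeO, a ratio per chicken count of 83.8 (exact interval of counting error, 28.4 to 409). Of the 273 counts, 186 were in iTeO (ES) replicate 1, and without that library the pooled ratio was 37.5 (12.4 to 185). Against the 2 counts in NCC, the pooled ratio was 127 (34.8 to 1053), and 56.7 (15.2 to 476) without iTeO (ES) replicate 1.

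**Figure D3:**
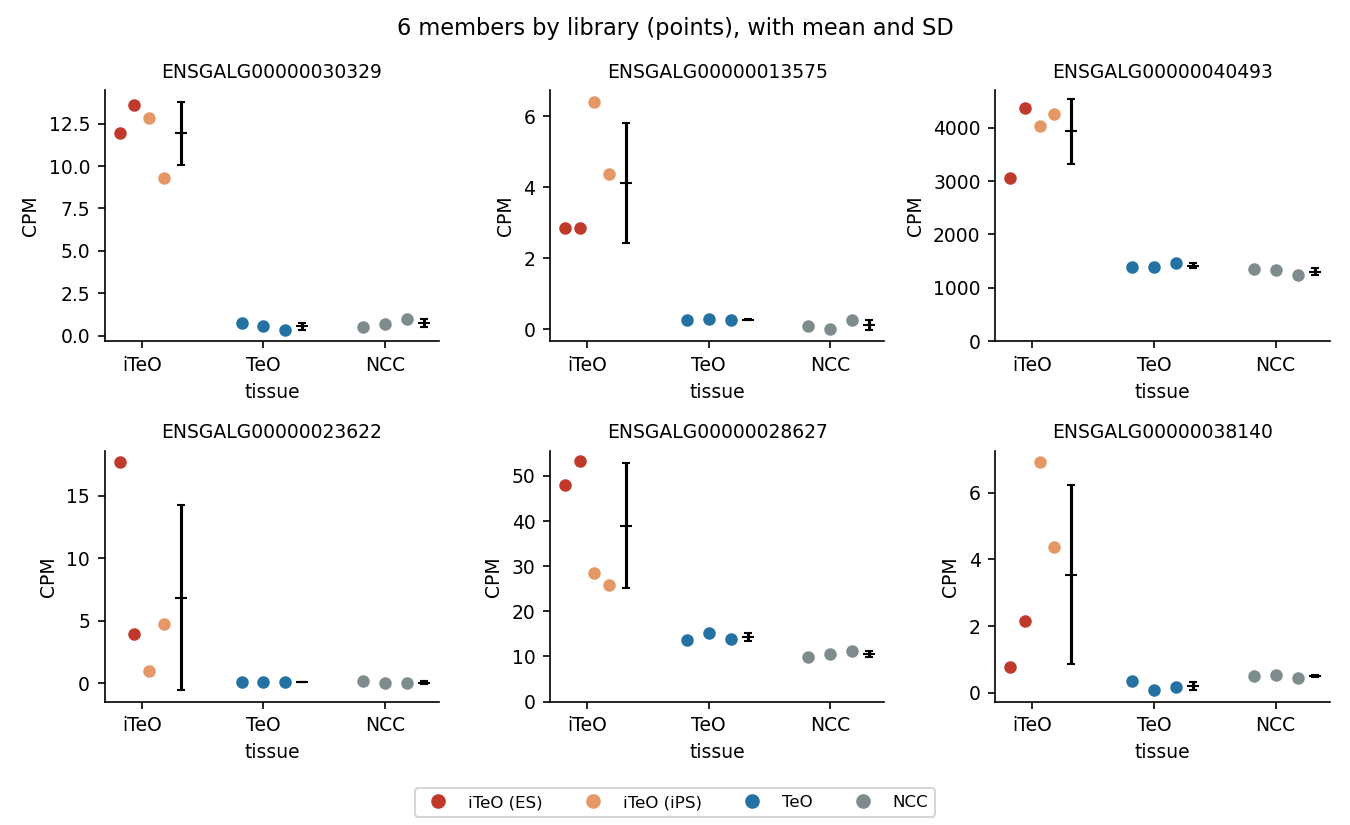
CPM of 6 members in each library (points, coloured by group), with the mean and SD of each tissue beside them in black. The vertical scales differ between panels, with highest points of 6.40 CPM for ENSGALG00000013575 and 4377 CPM for ENSGALG00000040493, and in each panel every iTeO point is above every TeO and NCC point, as the rule requires.

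Low counts limit the smallest members. Of the 427, 58 had under 20 counts in at least 1 iTeO library, with a lowest count of 5. In TeO or NCC, 7 had a library at 0 counts and 6 had at most 3 counts in every library, so the size of their fold is poorly known. The thresholds cut through a continuous range. The mean in iTeO was 2.02 and 2.04 CPM in the lowest members, against 1.92 and 1.91 CPM in the nearest genes that met all other criteria. The lowest ratio to the higher natural mean was 2.001 in members, against 1.998 just outside, and the lowest gap was 1.002 inside and 0.974 outside. The ratio of TeO to NCC reached 1.93 in members against 2.01 outside, and 0.508 inside against 0.493 outside. A single criterion kept out 197 genes by level, 2557 by fold, 35 by overlap of the libraries and 44 by the ratio of TeO to NCC. Asking for 1.5-fold gave 1140 genes and asking for 3-fold gave 148.

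The members varied more among the iTeO libraries than other genes did. The median coefficient of variation over the 4 iTeO libraries was 23.1% in members and 12.3% in the other 11991 genes of at least 2 CPM in iTeO. The median coefficient was also larger in members in TeO (17.0% against 8.20%) and in NCC (17.6% against 8.56%). These coefficients include counting error, which is larger at low levels, and the sets of genes were not matched for level. The median level of the members was 3.54 CPM in TeO and 3.03 CPM in NCC. The biological coefficient of variation of edgeR allows for counting error and is a single value per gene over all groups. Its median was 17.4% in members and 11.7% over all genes tested. The highest iTeO library was under 1.5 times the lowest in 145 members, at least 2 times in 123 and at least 3 times in 28, with a median of 1.68 against 1.32 in other genes.

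Members were most often highest in iTeO (ES) replicate 1 and lowest in iTeO (iPS) replicate 1. The highest library was iTeO (ES) replicate 1 in 173 members (40.5%, against 30.4% of other genes), iTeO (ES) replicate 2 in 112, iTeO (iPS) replicate 2 in 95 and iTeO (iPS) replicate 1 in 47 (11.0%, against 16.2% of other genes). The lowest was iTeO (iPS) replicate 1 in 150 members (35.1%, against 27.8% of other genes). Other genes were also most often highest in iTeO (ES) replicate 1. That library was lowest in 19.2% of members and in 28.2% of other genes. iTeO (ES) replicate 1 and iTeO (iPS) replicate 1 had the larger shares of human counts, 0.371% and 0.299%. Both are first replicates, so human share and replicate number cannot be told apart. The part of human counts in the members' levels was not tested. The order of the 4 iTeO libraries was that of their human shares in 22 members (5.15%), against 4.60% of other genes. Both first replicates were above both second replicates in 67 members (15.7%, against 13.6% of other genes), and the reverse held in 51 (11.9%, against 18.4%). Without both first replicates of iTeO, 467 genes met the rule, of which 377 were among the 427.

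The rule did not use the difference between iTeO (ES) and iTeO (iPS), although it bounds it by placing all 4 libraries above the natural ones. This comparison asks whether the members' level in iTeO depended on the kind of human cell implanted. The rule did use the mean of these 4 libraries, and most members lay near its 2-fold threshold. A high value in a single iTeO library could thus help a gene in, while the genes tested as a whole were not so chosen. Shares of members set beside those of all genes are therefore a description. None of the 426 members tested was called between iTeO (ES) and iTeO (iPS) at a Benjamini-Hochberg adjusted p under 0.05 with a log2 fold change beyond 1 in either direction, by the quasi-likelihood test of edgeR over all 13999 genes, of which 2 (0.0143%) were called. At an unadjusted p under 0.05 there were 79 members (18.5%), 56 higher in iTeO (ES) and 23 higher in iTeO (iPS), against 1285 of all genes tested (9.18%). This share stayed above that of all genes with any library left out, but only slightly without iTeO (iPS) replicate 1. The excess was not small when both first replicates of iTeO were left out, that library among them. DESeq2 called 3 members, among 40 of all genes tested, without shrinkage and 2 members, among 15, with ashr shrinkage. Leaving out iTeO (ES) replicate 1 gave 8 members among 64 of all genes, and leaving out iTeO (ES) replicate 2 gave 10 among 96, with the lone remaining library assumed to vary like the other groups. Leaving out both first replicates of iTeO gave 6 members among 62 genes.

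The median log2 fold change of iTeO (ES) over iTeO (iPS) was 0.10 in members and 0.01 over all genes tested, with 268 members above 0 and 158 below. It was over 1 in 17 members and under -1 in 5. Both iTeO (ES) libraries were above both iTeO (iPS) libraries in 99 members (23.2%, against 18.2% of all genes of at least 2 CPM in iTeO), and the reverse held in 49 (11.5%, against 14.2%). In the median fold change, the lean to iTeO (ES) was not kept without iTeO (ES) replicate 1. Between single libraries, the median difference over members in log2(TMM-scaled CPM + 0.1) was 0.24 for iTeO (ES) replicate 1 over iTeO (iPS) replicate 1 and 0.11 over iTeO (iPS) replicate 2, but 0.06 and -0.03 for iTeO (ES) replicate 2 over the same libraries. The median fold change was 0.01 without iTeO (ES) replicate 1, with 216 members above 0 and 209 below, and -0.0215 without both first replicates. It was also 0.01, with 216 members above 0 and 210 below, when the on or off state of the 21 genes was a term in the fit. Each kind of iTeO has a single state, so that fit takes the effect of the state from TeO and NCC alone. Whether that effect holds in iTeO was not tested. The kinds of iTeO also fall wholly on opposite sides of the set of 21 genes that was on or off, so this split and the kind of implanted cell cannot be told apart among the iTeO libraries.

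ENSGALG00000028627 and ENSGALG00000038140 were chosen after their values were seen. ENSGALG00000028627, the member with the smallest adjusted p in this comparison, had 48.1 and 53.4 CPM in iTeO (ES) against 28.6 and 25.8 CPM in iTeO (iPS), and 13.5 to 15.2 CPM in TeO and 9.81 to 11.1 CPM in NCC. Its log2 fold change of iTeO (ES) over iTeO (iPS) was 0.89 ± 0.13 (SE), with an edgeR adjusted p of 0.0606. ENSGALG00000038140 had 0.760 and 2.15 CPM in iTeO (ES) against 6.92 and 4.37 CPM in iTeO (iPS), and 0.0918 to 0.345 CPM in TeO and 0.451 to 0.531 CPM in NCC. Its log2 fold change was -1.97 ± 0.45 (SE), the lowest of the members, with an edgeR adjusted p of 0.281. In both genes the libraries of the kinds did not overlap, and neither passed the test.

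**Figure D4:**
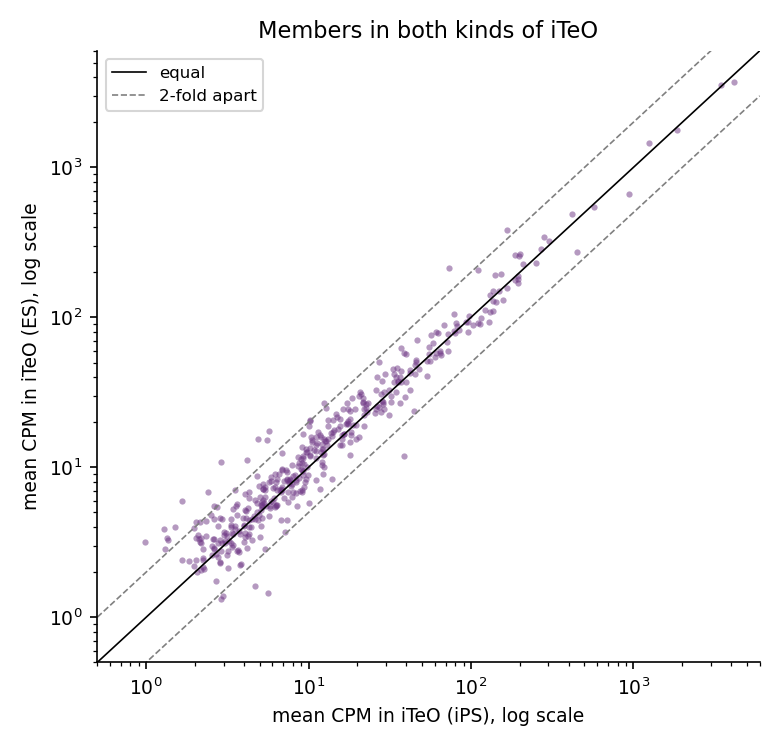
Mean CPM of each of the 427 members in iTeO (ES) (vertical, log scale) against its mean in iTeO (iPS) (horizontal, log scale), with lines for equal levels and for a 2-fold difference. Most points lie between the 2-fold lines, and 274 members lie above the line of equal levels.

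Choosing genes on 1 kind of iTeO and reading them in the other used iTeO libraries that the choice had not seen, while TeO and NCC were shared by both steps. With the 2 iTeO (ES) libraries in place of all 4, the rule chose 546 genes, of which 381 are members. Both iTeO (iPS) libraries were above all 6 TeO and NCC libraries in 468 of these 546 (85.7%), against 33.4% of the 12336 genes of at least 2 CPM in iTeO (iPS). The iTeO (iPS) mean was also more than 2 times both natural means in 337 (61.7%), against 4.17%. With the 2 iTeO (iPS) libraries, the rule chose 452 genes, of which 363 are members. Both iTeO (ES) libraries were above all TeO and NCC libraries in 413 of these (91.4%), against 33.0% of 12472 genes, and the 2-fold difference was met in 329 (72.8%), against 5.24%. After TMM scaling the shares above all natural libraries were 87.3% and 89.5%, against 19.2% and 18.3% of all genes. Since the same natural libraries stand on both sides, a low value there enters the choice and the reading alike, and these shares carry no test.

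**Figure D5:**
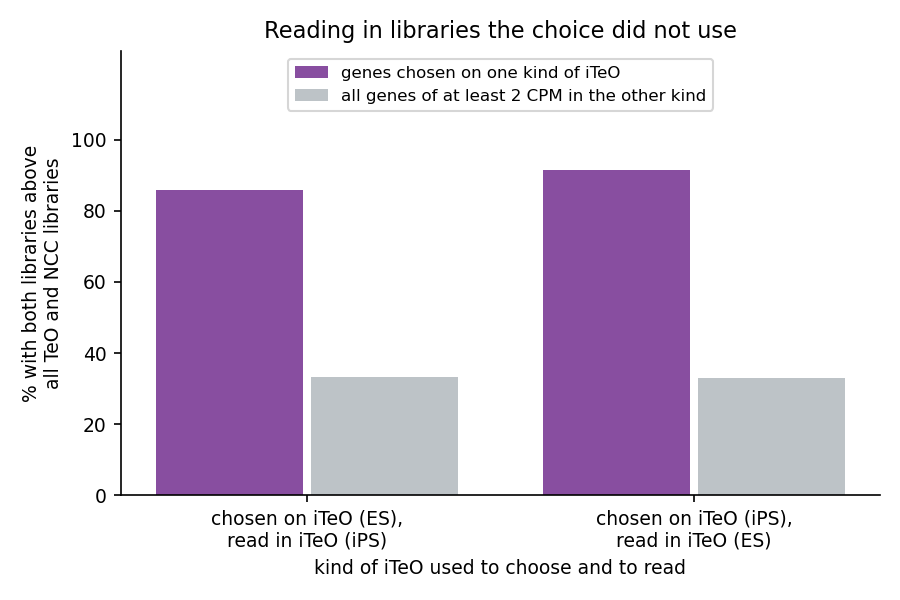
Percent of genes whose 2 libraries of the other kind of iTeO were both above all 6 TeO and NCC libraries, for genes chosen on 1 kind of iTeO (purple) and for all genes of at least 2 CPM in the kind read (grey). The purple bars are at 85.7% and 91.4% and the grey bars at 33.4% and 33.0%.

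Against the natural tissues, the edgeR fit gave a description of how far the members stood from the spread between replicates. Of the 426 members tested, 335 were called higher in iTeO than in TeO and none lower. Of all genes tested, 6.79% were called in this comparison, 4.04% higher and 2.75% lower. Against NCC, 357 members were called higher in iTeO and none lower, while 16.9% of all genes tested were called, 9.87% higher and 7.05% lower. Both comparisons called 297 members, and neither called 31. The median log2 fold change of the members was 1.27 for iTeO over TeO and 1.48 for iTeO over NCC. Both contrasts entered the rule and share the iTeO libraries, so these counts support nothing about the members. ENSGALG00000010402, the member that did not pass the filter on low counts, had 75, 8, 6 and 19 counts in iTeO, 2, 7 and 2 in TeO and 5, 6 and 8 in NCC. It too was named after its values were seen.

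TeO and NCC were held near each other by the rule, and the members leaned to TeO within the allowed band. The TeO mean was above the NCC mean in 282 members and below it in 145, the median ratio of TeO to NCC was 1.12, and 234 members had a ratio between 0.8 and the inverse of 0.8. In the edgeR fit, 63.4% of the members tested had a log2 fold change of TeO over NCC above 0, against 50.8% of all genes tested. The TeO libraries were all above the NCC libraries in 87 of the 427 members and all below in 30. Over the 12418 genes of at least 2 CPM in iTeO, these numbered 3585 (28.9%) and 3191 (25.7%). None of the members was called between TeO and NCC, against 12.8% of all genes tested (6.86% with TeO above NCC and 5.93% with TeO below NCC). At an adjusted p under 0.05 with any fold, edgeR found TeO above NCC in 51 members and below NCC in 9, together 14.1% of members against 37.6% of all genes tested. The unadjusted p was under 0.05 in 67 members with TeO above NCC and 15 with TeO below it, together 19.2% against 45.3% of all genes tested.

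Members were next to each other in the count table more often than other genes were next to a member. Another member stood in the row before or after 43 members (10.1%), against 485 (4.04%) of the other genes of at least 2 CPM in iTeO. These neighbours formed 16 pairs, 1 run of 3 and 2 runs of 4. In the first run of 4, the means in table order were 9.16, 103, 20.5 and 16.2 CPM in iTeO, and in the other they were 38.3, 7.68, 2.57 and 23.8 CPM in iTeO, so members of very different level stood side by side. The table gives no positions, so whether neighbouring rows are neighbouring or overlapping genes, whose reads the counting could share, was not tested.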

How the data were processed

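Total RNA of 10 tissue samples was sequenced as 75 bp single-end reads. The deposited table holds unnormalized read counts for each gene, which the authors obtained by trimming with Trimmomatic, aligning with STAR 2.7.1a to a joint reference of GRCh38 (human) and galgal5 (chicken) and counting unique reads with featureCounts, leaving out reads equally similar to both genomes. The library kit keeps strand, but the strand setting of the counting is not given in the sources used here. Samples were grouped by their titles.

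CPM were computed on the chicken total of each library. Tests used edgeR 4.0.16 under R 4.3.3 (TMM, filterByExpr by tissue, robust quasi-likelihood fit, Benjamini-Hochberg adjustment over 13999 genes) in 1 fit of all 10 libraries, with iTeO as 1 group or, for iTeO (ES) against iTeO (iPS), as 2. The SE of a log2 fold change is its size over the root of the F statistic. The procedure was also run on simulated counts in which a set of genes was changed and the groups did not otherwise differ. That setting is simpler than these data. Alternatives were DESeq2 1.42.0 with and without ashr 2.2.63, its size factors, other filters and thresholds, the compared libraries alone, a replicate block, and each library left out. The on and off split as a term, the crossed block and leaving out both first replicates of iTeO were added after seeing the data.

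The members and lists were chosen with earlier results of these data known. Without gene names, at most 2 members with the widest gap between iTeO and the natural libraries were to be named, and others were named after their values were seen. Marker and pathway lists could not be matched and were not used here.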

Additional observations from a re-analysis of the deposited data

Results flagged for a closer look

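Counts on human genes, which entered none of the comparisons, were above the TeO and NCC libraries (0.123% to 0.137% of all counts) in 2 iTeO libraries. In iTeO (ES) replicate 1 they made up 0.371%, with a 95% Wilson interval of 0.367% to 0.375%, and in iTeO (iPS) replicate 1 they made up 0.299%, with an interval of 0.295% to 0.302%. Their part in the members' levels was not tested, and counts without both libraries are given with the results.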

How the results depend on the processing

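The number of members stayed within 1.5 times of 427 in 18 alternatives (422 to 470 when 1 library was left out) and became 1140 at 1.5-fold and 148 at 3-fold. Among the 18, TMM scaling gave 287 and lost 141 of the 427. The size factors of DESeq2 gave 293 and lost 135. For genes chosen on iTeO (ES), the share with both iTeO (iPS) libraries above TeO and NCC, 85.7%, became 87.3% with TMM, 90.6% from 5 CPM, 91.0% at 3-fold and 77.6% to 90.8% with a library left out. For genes chosen on iTeO (iPS), 91.4% became 89.5%, 93.6%, 96.3% and 85.8% to 94.5% under the same changes. Calls between iTeO (ES) and iTeO (iPS), 0 by edgeR, numbered 3 with DESeq2 without shrinkage, 2 with ashr, 1 (among 20 of all genes tested) with only the compared libraries, 6 without both first replicates of iTeO and 0 to 10 with a library left out. The median log2 fold change of members in this comparison was -0.0215 without both first replicates and 0.01 to 0.18 with a library left out. ENSGALG00000028627 had an adjusted p between 0.000476 and 0.726 over its alternatives, and was called (log2 fold change 1.05, edgeR adjusted p = 0.0177) without both first replicates. Calls between TeO and NCC numbered 1 (among 1805 of all genes tested) with the on and off split as a term and 0 to 12 with a library left out. The 12, among 1794 of all genes tested, came without NCC replicate 3. Calls of iTeO against TeO and against NCC stayed within 1.5 times under every alternative run. With ashr shrinkage, which the study used, DESeq2 called 227 of 426 members against TeO, among 508 of all genes tested. Against NCC it called 305, among 1882. With a library left out, 303 to 334 members were called against TeO, among 862 to 972 of all genes tested. Against NCC it was 341 to 358 members, among 2223 to 2439.

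Whether the replicate numbers pair the samples could not be settled here. Deviations of same-numbered libraries correlated at -0.11 between iTeO (ES) and iTeO (iPS), and at 0.33, -0.24 and 0.34 between TeO and NCC. With 2 libraries per kind of iTeO, all pairs give the same value apart from its sign. Differently numbered libraries of TeO and NCC correlated at -0.51 to 0.33. The set of 21 genes was on in TeO replicate 2 and off in NCC replicate 2, so the numbers did not pair libraries of the same state throughout. TeO and NCC libraries of the same state correlated at 0.31 to 0.34, and those of opposite states at -0.51 to -0.17. With the number as a replicate block, 321 members were called against TeO, among 869 of all genes tested, and 345 against NCC, among 2334. The block gave 0 members between iTeO (ES) and iTeO (iPS), among 1 of all genes tested, and 0 between TeO and NCC, among 1758. A crossed block gave 0 between the kinds of iTeO, among 1.

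Depth limits the members of few counts, and 2 libraries per kind of iTeO limit that comparison.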

Other observations

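A single iTeO library stood far from the other 3, by Dixon's ratio of gap to range above its 95% critical value for 4 samples, in 38 members (8.90%) and in 671 other genes of at least 2 CPM in iTeO (5.60%). Chance gives about 5% for normally distributed values, which these CPM need not be. In the members the library that stood apart was iTeO (ES) replicate 1 on the high side in 13 and iTeO (ES) replicate 2 on the high side in 13. In the 671 other genes these numbered 169 and 129. The rule limits how low the lowest iTeO library of a member can be.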
